A study of Mus musculus with 4 samples.

Results

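The 10 genes described here encode the structural components of vascular basement membranes: Col4a1, Col4a2, Col15a1, Col18a1, Nid1, Nid2, Lama4, Lamb1, Lamc1 and Hspg2. They were chosen by name, all 10 were found among the 32285 genes of the count tables, and none of them was used to sort or class a cell. RNA was measured by droplet 3′ single-cell sequencing with unique molecular identifiers (UMIs) in stromal and endothelial cells from mouse femurs. The design held 4 libraries, 1 per group: Graft_D40 and Sham_D40, taken at day 40, Graft_D19, taken at day 19, and Ctrl. Graft_D40 and Graft_D19 came from femurs injected with DOHH2, a human B-cell line derived from a follicular lymphoma, Sham_D40 from PBS-injected femurs and Ctrl from ungrafted mice. All hosts, controls included, were C57BL/6 mice of the genotype Rag2-/-gammac-/-, which lack T, B and NK lymphocytes and keep their myeloid cells, so every group is a model without adaptive immunity. After digestion of bone and marrow and bead depletion of Cd45+ and Ter119+ cells, stroma was sorted as Cd31- Cd51+ Cd200+ and endothelium as Cd31+ Sca1+. These gates can set which cells are present, and neither the number of mice per library nor their age is given in the sources used here. With 1 library per group, a graft library and its own comparator could not be tested against each other, and intervals on levels, shares and ratios below are exact 95% intervals that cover counting error only. The 2 grafted libraries together were tested against the 2 ungrafted ones.

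Basement membranes are thin sheets on which endothelial cells rest and in which pericytes are embedded. A collagen IV network and a laminin network are laid down separately and are bridged by nidogens and by the heparan sulphate proteoglycan perlecan, while collagens XV and XVIII tie the sheet to the matrix around it. Arteries and capillaries have a continuous sheet. Marrow sinusoids, the wide thin-walled venous vessels through which blood cells enter the circulation, are known for a sparse and discontinuous one.

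By role, Col4a1 and Col4a2 encode the alpha chains that assemble into the common collagen IV trimer. They lie head to head on chromosome 8 of GRCm38 (GENCODE vM21), Col4a1 at chr8:11198423-11312826 on the minus strand with 53 exons and Col4a2 at chr8:11312805-11449287 on the plus strand with 48 exons, so that their first exons share 22 bases. The RefSeq promoter table (GRCm38.p6) held 7 of the 10 genes, and not Nid2, Lama4 and Lamc1. The windows of Col4a1 and Col4a2 are shown because the pair kept a narrow UMI ratio across the 5 cell classes, and that of Nid1 because this gene went against the others. Each runs 5′ to 3′ on its gene's strand from 250 bases before to 50 bases after the start site, and capitals mark matches on either strand to GGGCGG (GC box) or CCAAT.
Col4a1, chr8:11312777-11313076, minus strand: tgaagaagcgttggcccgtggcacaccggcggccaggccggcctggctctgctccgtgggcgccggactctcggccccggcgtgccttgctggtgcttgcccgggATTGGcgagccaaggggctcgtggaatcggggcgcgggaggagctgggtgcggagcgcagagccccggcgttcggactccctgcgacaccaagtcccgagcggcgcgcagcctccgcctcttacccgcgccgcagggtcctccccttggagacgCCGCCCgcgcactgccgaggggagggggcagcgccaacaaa
Col4a2, chr8:11312555-11312854, plus strand: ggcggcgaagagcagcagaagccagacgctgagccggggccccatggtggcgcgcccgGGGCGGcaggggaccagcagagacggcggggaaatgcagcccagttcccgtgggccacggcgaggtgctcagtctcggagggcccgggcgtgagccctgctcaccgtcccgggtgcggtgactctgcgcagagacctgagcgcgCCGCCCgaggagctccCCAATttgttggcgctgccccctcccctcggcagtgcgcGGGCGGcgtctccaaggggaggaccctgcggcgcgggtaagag
Nid1, chr13:13437352-13437651, plus strand: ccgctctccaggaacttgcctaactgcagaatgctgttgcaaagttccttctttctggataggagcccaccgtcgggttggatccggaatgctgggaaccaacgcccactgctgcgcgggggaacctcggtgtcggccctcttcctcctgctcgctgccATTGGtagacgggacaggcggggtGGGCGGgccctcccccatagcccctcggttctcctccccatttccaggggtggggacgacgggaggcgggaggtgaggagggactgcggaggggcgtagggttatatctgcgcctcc
The Col4a1 and Col4a2 windows overlap by 78 bases. The Col4a1 window held 1 GC box and 1 CCAAT match, the Col4a2 window 3 GC boxes and 1 CCAAT match, and the Nid1 window 1 of each. GGGCGG was found in 35.7% and CCAAT in 37.4% of all 32851 promoter windows of this length. TATAAA, found in 13.6% of them, was in none of the 3 windows. Their GC content was 74.0%, 73.7% and 64.7% for Col4a1, Col4a2 and Nid1, against a median of 52.7% over all windows.

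The other members lie on separate loci. Col15a1 (chr4:47208161-47313167, plus strand, 40 exons) and Col18a1 (chr10:77052178-77166548, minus strand, 42 exons) encode the collagens of the outer face of the sheet, the second being the precursor of endostatin. Nid1 (chr13:13437551-13512269, plus strand, 20 exons) and Nid2 (chr14:19751265-19811787, plus strand, 21 exons) encode the nidogen linkers. Lama4 (chr10:38965515-39110188, plus strand, 38 exons), Lamb1 (chr12:31265234-31329644, plus strand, 34 exons) and Lamc1 (chr1:153218922-153332786, minus strand, 28 exons) encode the alpha4, beta1 and gamma1 chains of the main endothelial laminin trimer. Hspg2 (chr4:137468769-137570630, plus strand, 97 exons) encodes perlecan. Nid2 overlaps Rtraf and Col18a1 overlaps Slc19a1 on the other strand, and Col4a1, Col4a2, Col15a1 and Nid1 overlap annotated antisense genes, so a few reads at these loci could belong to the partner.

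The libraries held 72204599 gene UMIs in Graft_D40, 51744386 in Sham_D40, 63214301 in Graft_D19 and 18533482 in Ctrl, so Ctrl was the shallowest. After filters and doublet removal 18281 cells were used, with a median of 9796 UMIs per cell in Graft_D40, the highest, and 3549 in Ctrl, the lowest, and 11 to 15 barcodes shared by any pair of libraries. Cells were classed by how many fixed markers they carried, such as Stab2 for sinusoids, Gja5 for arteries, Car4 for capillaries, Rgs5 for pericytes and Cxcl12 for stroma. This gave 3265 sinusoidal, 508 arterial, 589 capillary, 275 pericyte and 11516 stromal cells, together 88.4% of those used. All 12 endothelial markers were found in each endothelial class, with a summed level of 8666 to 12360 CPM (counts per 1e6: the UMIs of a gene over all UMIs of that class in that library, times 1e6). The share of a class that fell in a Leiden cluster of the same name was 98% for sinusoidal, 63.2% for arterial, 91.0% for capillary, 91.6% for pericyte and 96.3% for stromal cells. The stromal class was spread over clusters that differed between libraries: its first cluster held 36.5% of it in Graft_D40 (cluster 8, led by Col8a1), 41.4% in Sham_D40 (cluster 4, led by Slc26a7) and 56.0% in Ctrl (cluster 1), and in Graft_D19 clusters 8 and 4 held 18.9% and 18%. The arterial class lay mostly in cluster 16 (led by Gja5) in every library, at 57.1% to 70.8%. Its second cluster was the capillary cluster 10 (led by Car4) in Graft_D40, Sham_D40 and Ctrl, at 17.8%, 27.6% and 27.7%, and cluster 5, led by Ramp3, Ednrb and Piezo2, in Graft_D19, at 26.0%. The lowest class in a library held 42 cells (pericytes, Graft_D19).

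Between cell classes, sinusoidal endothelium was below arterial and capillary endothelium for most basement membrane genes and had the highest Nid1 of the 5 classes. Arterial endothelium was higher than sinusoidal endothelium for 8 of the 10 genes and lower for 1, against 12.8% of 11786 genes called higher and 11.9% called lower (edgeR quasi-likelihood test on summed UMIs with the library as a block, adjusted p under 0.05). Capillary endothelium was higher for 7 and lower for 1, against backgrounds of 12.9% and 12.6%. The median log2 difference of all genes in these contrasts was -0.0187 and 0.000698. Because the libraries stand for 4 different conditions, the spread that these tests use includes the effect of graft and day.

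**Figure D1:**
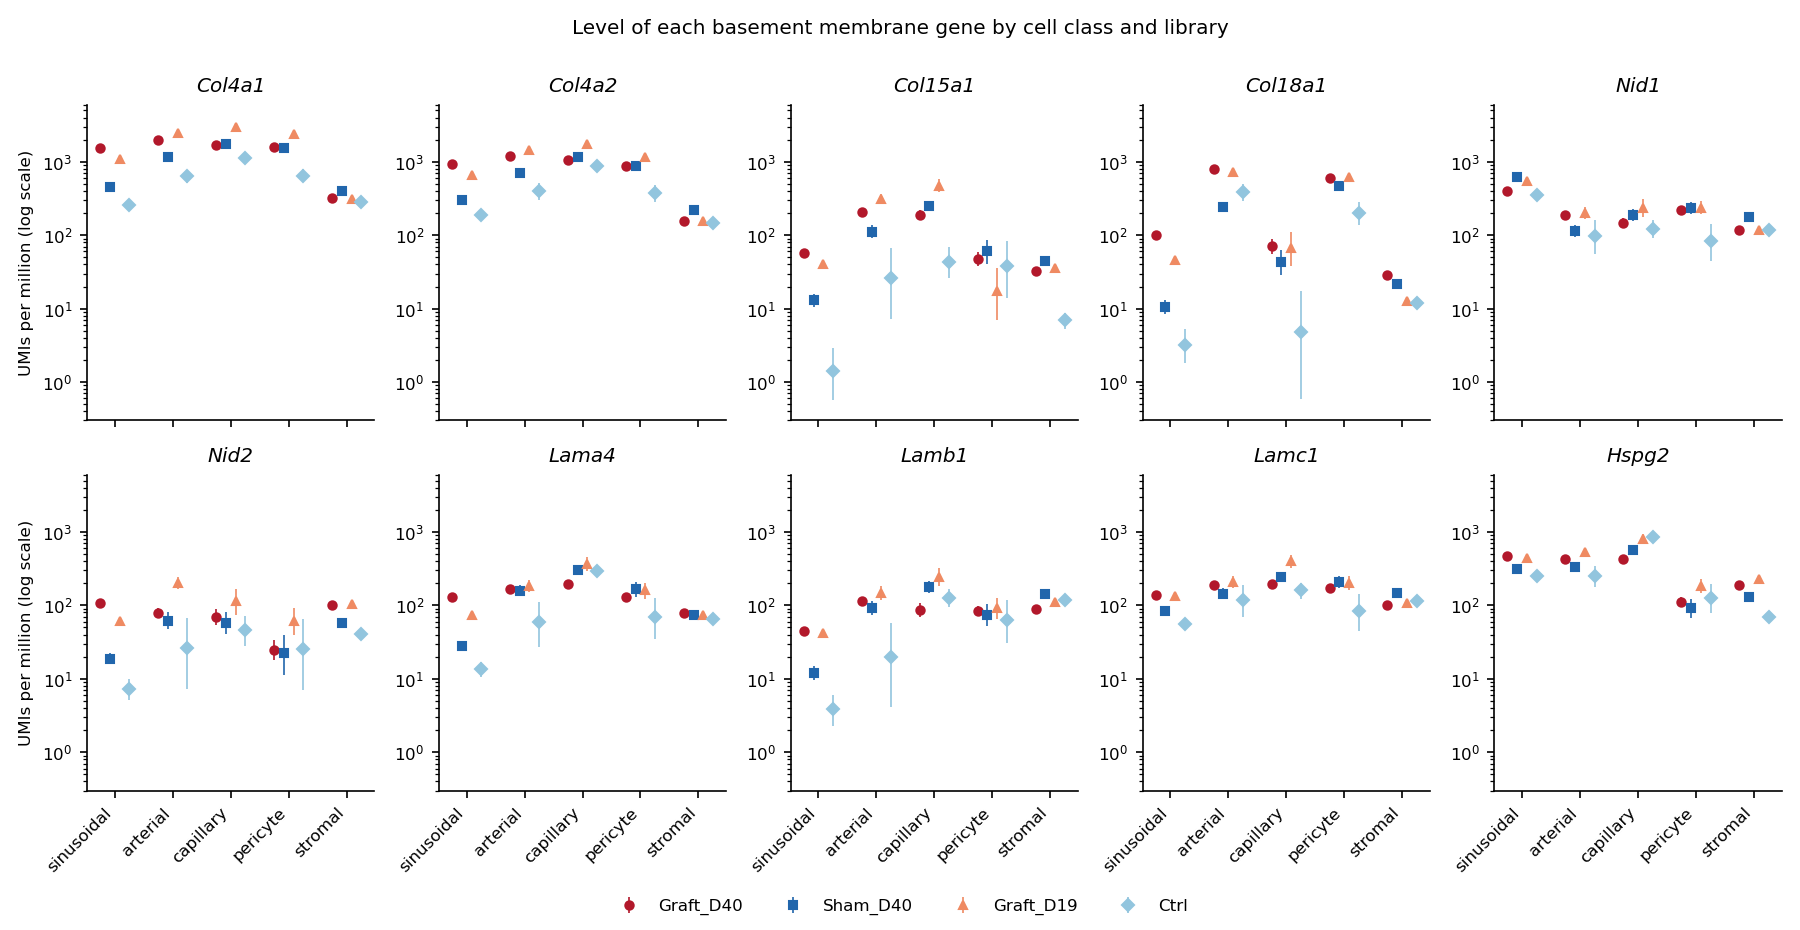
Level of each gene (CPM, log scale) by cell class in each of the 4 libraries; bars are exact 95% Poisson intervals, which cover counting error only. Nid1 is highest in the sinusoidal class in all 4 libraries, Col18a1 is high in arterial and pericyte cells, and the sinusoidal levels of most other genes are higher in both grafted libraries than in Sham_D40 and Ctrl.

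For collagen IV, Col4a1 had 1993 CPM in arterial, 1676 in capillary, 1578 in pericyte, 1521 in sinusoidal and 323 in stromal cells of Graft_D40. In Sham_D40 the same classes had 1160, 1742, 1561, 459.8 and 405 CPM, in Graft_D19 2428, 2988, 2413, 1081 and 312 CPM, and in Ctrl 632, 1141, 649, 259 and 279 CPM. Capillaries were highest in 3 of 4 libraries, and stroma was lowest in 3 of 4. Arterial over sinusoidal cells the log2 difference was 0.94 ± 0.29 (SE, adjusted p = 0.0211), and capillary over sinusoidal cells it was 1.34 ± 0.29 (adjusted p = 0.00186), each higher in 4 of 4 libraries. Within libraries the arterial level was 1.31 (Graft_D40) to 2.52 times the sinusoidal level. Col4a2 differed in the same way, by 0.87 ± 0.28 (adjusted p = 0.0297) and 1.38 ± 0.29 (adjusted p = 0.00128). Pericytes were above stroma for both chains, Col4a1 by 1.85 ± 0.30 (adjusted p = 8.57e-05) and Col4a2 by 1.96 ± 0.30 (adjusted p = 4.3e-05), in 4 of 4 libraries.

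Col18a1 separated the classes most. Arterial cells had 789.7, 245, 736 and 382 CPM and capillary cells 70.8, 43.7, 67.7 and 4.8 CPM in Graft_D40, Sham_D40, Graft_D19 and Ctrl. Pericytes had 601, 465, 623 and 204 CPM in the same order, sinusoidal cells 102, 10.6, 45.4 and 3.2 CPM, and stroma 28.6, 21.5, 12.7 and 12.1 CPM. Arterial and pericyte levels thus lay above every level of the other 3 classes. The log2 difference was 4.11 ± 0.49 for arterial over sinusoidal cells (adjusted p = 2.39e-06), -3.57 ± 0.55 for capillary over arterial cells (adjusted p = 0.000348) and 4.38 ± 0.50 for pericytes over stroma (adjusted p = 1.58e-06), each with the same direction in 4 of 4 libraries. Capillary over sinusoidal cells it was 0.54 ± 0.54 and did not pass (adjusted p = 0.522).

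Col15a1 did not separate arteries from capillaries in this way. Capillaries had 188, 251, 474 and 43.5 CPM and arteries 208, 112, 309.7 and 26.3 CPM in Graft_D40, Sham_D40, Graft_D19 and Ctrl, a difference that did not pass (0.56 ± 0.43, adjusted p = 0.581). Both were above sinusoidal cells, which had 58.1, 13.0, 40.1 and 1.4 CPM: arteries by 2.63 ± 0.42 (adjusted p = 8.59e-05) and capillaries by 3.19 ± 0.43 (adjusted p = 1.33e-05) on the log2 scale, in 4 of 4 libraries. The UMI ratio of Col18a1 to Col15a1 was 5.33 to 36.1 in pericytes, 2.18 to 14.5 in arteries, 0.817 to 2.29 in sinusoids and 0.111 to 0.376 in capillaries. Capillary over arterial cells, Col18a1 was the only member called in either direction, against 3.0% of all genes higher and 3.82% lower, and it still was the only one under 6 of the 10 alternatives tried. The log2 difference of Hspg2 in this contrast was 0.85 ± 0.26 (adjusted p = 0.0636).

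The nidogens went apart. Nid1 had 401 CPM in Graft_D40, 628 in Sham_D40, 555 in Graft_D19 and 351 in Ctrl in sinusoidal cells, and the highest level in any other of the 5 classes was 236 CPM. Within stroma, the LepR and fibroblast subclasses reached 322 and 382 CPM. Arterial cells were lower than sinusoidal cells by a log2 difference of -1.70 ± 0.22 (adjusted p = 6.11e-06) and capillary cells by -1.52 ± 0.21 (adjusted p = 2.14e-05). Within libraries the arterial level was 0.182 to 0.467 times and the capillary level 0.299 to 0.423 times the sinusoidal level, so all 4 libraries had the same direction. Nid2 was spread more evenly. Its arterial levels of 78.9, 62.0, 200.2 and 26.3 CPM in Graft_D40, Sham_D40, Graft_D19 and Ctrl were higher than the sinusoidal levels of 108, 18.9, 60.3 and 7.2 CPM in 3 of 4 libraries (1.04 ± 0.37, adjusted p = 0.0442), and in Graft_D40 the arterial level was 0.734 times the sinusoidal one. Pericytes had less Nid2 than stroma in 4 of 4 libraries (-1.73 ± 0.45, adjusted p = 0.00628). This stromal class includes chondrocytes, where Nid2 was 95.6 to 198 CPM. Stroma without chondrocytes had 35.0 to 43.6 CPM and pericytes had 22.2 to 61.6 CPM, so these ranges overlapped.

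Among the laminin chains, Lama4 and Lamb1 were low in sinusoids and high in capillaries. Lama4 had 194, 301, 366 and 293 CPM in capillaries and 130.1, 27.7, 74.2 and 13.5 CPM in sinusoids of Graft_D40, Sham_D40, Graft_D19 and Ctrl, a log2 difference of 2.46 ± 0.39 (adjusted p = 8.91e-05). Lamb1 had 87.7, 179.7, 244 and 126 CPM in capillaries and 44.2, 12.2, 42.2 and 3.8 CPM in sinusoids of the same libraries, a log2 difference of 2.72 ± 0.44 (adjusted p = 9.62e-05). Lamc1, whose gamma1 chain is shared by most laminins, varied least of the 3 and was above sinusoids by 1.24 ± 0.21 in capillaries (adjusted p = 0.000177) and by 0.68 ± 0.21 in arteries (adjusted p = 0.024). In each of these genes capillaries exceeded sinusoids in 4 of 4 libraries. Arterial over sinusoidal cells, the differences of Lama4 (1.40 ± 0.39, adjusted p = 0.0115) and Lamb1 (2.04 ± 0.43, adjusted p = 0.00126) also passed.

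Hspg2 had 424, 567, 812.5 and 839 CPM in capillaries, 426, 334, 536 and 250.0 CPM in arteries and 472, 308, 434 and 253 CPM in sinusoids of Graft_D40, Sham_D40, Graft_D19 and Ctrl. Arteries and sinusoids overlapped, with arteries higher in 2 of 4 libraries (0.04 ± 0.26, adjusted p = 0.948). Capillaries were higher than sinusoids in 3 of 4 libraries (0.89 ± 0.26, adjusted p = 0.0145).

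**Figure D2:**
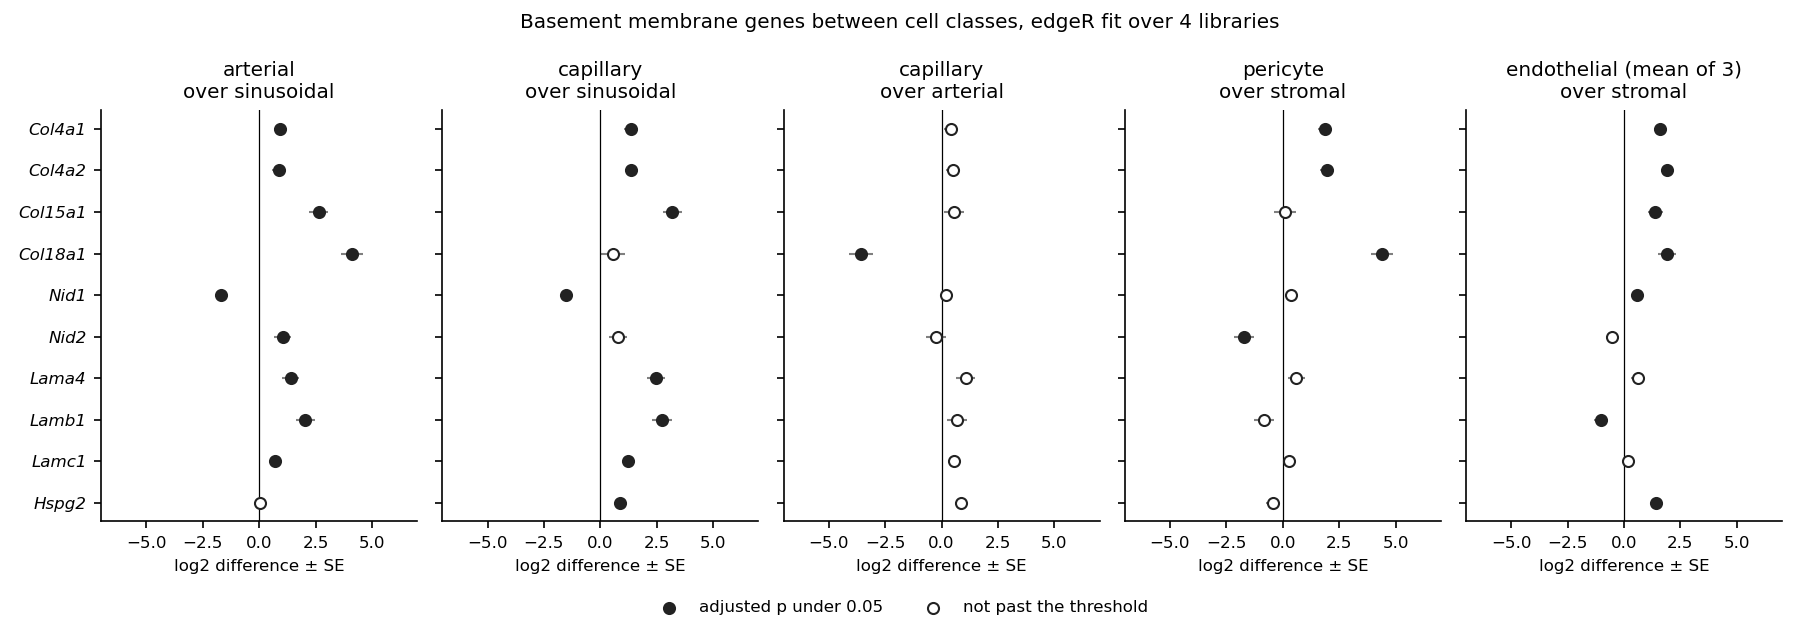
Log2 difference ± SE of each gene in 5 contrasts between cell classes, from the edgeR fit over 4 libraries; filled points passed the adjusted p of 0.05. Nid1 lies left of 0 and most other genes right of 0 in both contrasts with sinusoids, and Col18a1 alone is filled between capillaries and arteries.

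As the mean of the 3 endothelial classes, endothelium was above stroma for 6 members and below it for 1, with 25.1% of all genes called higher and 34.4% lower. The 6 were Col4a1 (1.59 ± 0.26), Col4a2 (1.92 ± 0.26), Col15a1 (1.39 ± 0.34), Col18a1 (1.91 ± 0.42), Nid1 (0.58 ± 0.17) and Hspg2 (1.40 ± 0.22). Lamb1 was below stroma (-1.01 ± 0.31, adjusted p = 0.00815). This mean joins unlike classes, and so does stroma. Its chondrocytes had means of 8.25 CPM for Col4a1, 5.771 for Nid1 and 264.4 for Hspg2. Its largest subclass, LepR stroma, had 667.2, 255.9 and 81.72 CPM. That Nid1 mean was above those of arteries (150.5) and capillaries (173.3) and below that of sinusoids (483.8). Col4a1 of LepR stroma exceeded the sinusoidal level in Sham_D40 and Ctrl (346.1 against 259.1 CPM in Ctrl). It was lower in both grafted libraries. Within libraries Lamb1 was 0.0326 to 0.489 times the stromal level in sinusoids and 0.969 to 2.2 times in capillaries. Col18a1 was 0.266 to 3.56 times and Col15a1 0.204 to 1.8 times the stromal level in sinusoids, and Nid1 0.652 to 1.69 times in arteries. Col4a2 and Hspg2 were above the whole stromal class in 4 of 4 libraries in each endothelial class. Col4a2 was 180.6 to 413.9 CPM in LepR stroma and 191.0 to 918.3 CPM in sinusoids, so these ranges overlapped. Pericytes exceeded stroma for 3 members, Col4a1, Col4a2 and Col18a1, and were below it for Nid2, against backgrounds of 11.9% and 16.2%. The Nid2 levels of pericytes overlapped those of stroma without chondrocytes. The arterial against sinusoidal calls depended on single libraries and on the gate. Of the 9 called, 4 were called without Sham_D40, 4 without Graft_D19, 5 without Ctrl, 9 without Graft_D40 and 5 without the library block. The shares of all genes called in these fits were 15.4%, 18.7%, 23.2%, 23.9% and 19.1%. Col4a1, Col4a2 and Nid2 were also lost with a stricter gate (adjusted p = 0.0909, 0.0603 and 0.0919). Col15a1, Col18a1, Nid1 and Lamb1 were called in all of these fits. The Hspg2 call in capillaries over sinusoids was lost without Ctrl (adjusted p = 0.0785), without Sham_D40 (0.0963) and without Graft_D19 (0.0615), and Nid2 was called there without Graft_D40 (log2 difference 1.5, adjusted p = 0.0013).

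Against the sham injection at day 40, the graft library had more RNA of 9 basement membrane genes in sinusoidal endothelium and less of the 10th, Nid1. Here and below a gene is counted as higher or lower when its level differed by 1.5-fold or more at a mean of 5 CPM or more. Of 10352 genes measured in sinusoidal cells, 8.46% were higher and 7.77% lower by that rule. The median log2 ratio, taken on CPM + 1, was 1.75 over the 10 members and 0.0358 over all genes.

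Collagen IV in sinusoidal cells was 1521 CPM in Graft_D40 and 459.8 in Sham_D40 for Col4a1, a ratio of 3.31 (interval 3.18 to 3.44), and 918 and 298 CPM for Col4a2, a ratio of 3.08 (2.93 to 3.25). Col18a1 had the highest ratio of the 10, 9.59 (7.54 to 12.4), with 102 CPM in Graft_D40 and 10.6 in Sham_D40. Col15a1 had 58.1 and 13.0 CPM, a ratio of 4.46 (3.53 to 5.69). Its UMIs were concentrated: 10 cells held 42.5% of them in Graft_D40 and 77.4% in Sham_D40, and without the 10 cells with most UMIs the log2 ratio was 3.15 instead of 2.08.

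Nid2 had 108 CPM in Graft_D40 and 18.9 in Sham_D40, a ratio of 5.69 (4.71 to 6.92). Nid1 had 401 CPM in Graft_D40 and 628 in Sham_D40, a ratio of 0.639 (0.607 to 0.672). The nidogens of sinusoidal cells therefore differed in opposite directions between these libraries. Lama4 had 130.1 and 27.7 CPM in Graft_D40 and Sham_D40 (4.7, 4.01 to 5.53), Lamb1 44.2 and 12.2 CPM (3.64, 2.83 to 4.7) and Lamc1 139 and 84.6 CPM (1.64, 1.47 to 1.83). Lama4 and Lamb1 thus had larger ratios than Lamc1. Hspg2 had 472 and 308 CPM, a ratio of 1.53 (1.45 to 1.62), just past the fold.

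In arterial endothelium 5 members were higher in Graft_D40 than in Sham_D40 and none lower, with 12.4% of all genes higher and 10.9% lower. Col18a1 had 789.7 CPM in Graft_D40 and 245 in Sham_D40 (3.23, 2.8 to 3.73), Col15a1 208 and 112 (1.86, 1.49 to 2.33), Col4a1 1993 and 1160 (1.72, 1.6 to 1.84), Col4a2 1190 and 699 (1.7, 1.56 to 1.86) and Nid1 187 and 114 (1.64, 1.31 to 2.06). The median log2 ratio of the members was 0.549. This count depended on how cells were taken: 2 members were past the fold when each cell had equal weight, where 13.1% of genes were higher, and 10 with Leiden clusters in place of the gate, where 14.6% were.

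Capillaries had 1 member higher, Col18a1 (70.8 CPM in Graft_D40 and 43.7 in Sham_D40, a ratio of 1.62, 1.03 to 2.62), and 2 lower, against backgrounds of 18.7% and 15.4%. Lama4 had 194 and 301 CPM (0.645, 0.525 to 0.793) and Lamb1 87.7 and 179.7 CPM (0.488, 0.365 to 0.651). Capillary Col4a1 was close in both libraries, with 1676 CPM in Graft_D40 and 1742 in Sham_D40 (0.962, 0.891 to 1.04). The counts depended on how cells were taken: 0 members were higher and 6 lower with a stricter gate, against 21.1% and 18.5% of genes. With equal weight per cell 0 were higher and 1 lower, against 16.5% and 15.6%. In this class the 8 chondrocyte markers summed to 4329 CPM in Graft_D40, 2045 in Sham_D40, 397 in Graft_D19 and 41.1 in Ctrl, and the 8 capillary markers to 5711, 8250, 7042 and 11600 CPM. Their part in the result was not tested.

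Pericytes had no member past the fold, with 14.1% of genes higher and 22.2% lower. Pericyte Col4a1 was 1578 CPM in Graft_D40 and 1561 in Sham_D40 (1.01, 0.933 to 1.1), and Col18a1, the member with the largest ratio there, 601 and 465 CPM (1.29, 1.12 to 1.5). In pericytes of these libraries the 12 stromal markers summed to 16300 and 7648 CPM and the 8 chondrocyte markers to 406.3 and 657.2 CPM. The 9 pericyte markers summed to 11500 and 15370 CPM. The part of these differences in the result was not tested. The whole stromal class had 1 member higher and 1 lower, against 6.28% and 12%: Nid2 had 102 CPM in Graft_D40 and 57.5 in Sham_D40 (1.78, 1.69 to 1.87), and Lamb1 90.5 and 142 CPM (0.637, 0.612 to 0.663).

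**Figure D3:**
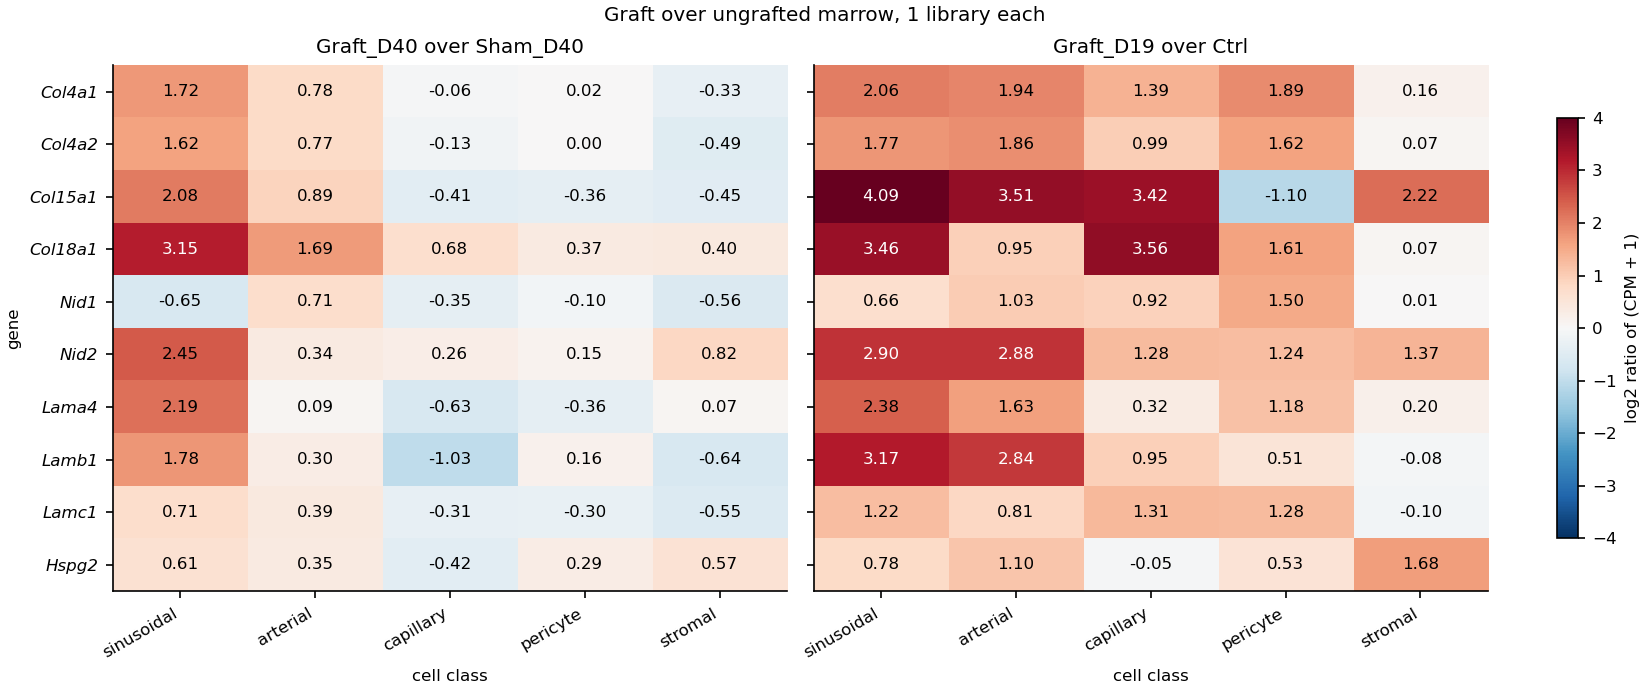
Log2 ratio of (CPM + 1) of each gene in each cell class, for Graft_D40 over Sham_D40 and Graft_D19 over Ctrl, with 1 library per group and no test. The sinusoidal column is positive for all genes but Nid1 at day 40, the arterial values at day 40 are 0.09 to 1.69, and the capillary, pericyte and stromal values at day 40 lie between -1.03 and 0.82.

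At day 19 the graft library was set against Ctrl, which was also ungrafted but was neither injected nor taken at a stated day. All 10 members were higher in sinusoidal and in arterial cells, 8 in capillaries, 7 in pericytes (1 lower, against 22.3% of genes) and 3 in stroma, while 21.7%, 30.1%, 29.9%, 37.7% and 18.5% of all genes were higher in those classes. In sinusoidal cells Col4a1 had 1081 CPM in Graft_D19 and 259 in Ctrl (4.17, 3.94 to 4.42), Lama4 74.2 and 13.5 CPM (5.51, 4.29 to 7.19), and Nid2 60.3 and 7.2 CPM (8.33, 5.95 to 12). Col18a1 had 45.4 and 3.2 CPM (14.1, 8.59 to 24.9) and Col15a1 40.1 and 1.4 CPM (28.5, 13.7 to 71.4). Nid1 was also higher here, with 555 CPM in Graft_D19 and 351 in Ctrl (1.58, 1.5 to 1.67). With median-of-ratios scaling 8 of the 10 were past the fold in sinusoidal cells. The arterial classes compared here held different cells, since cluster 5 made up 26.0% of that of Graft_D19 and the capillary cluster 10 27.7% of that of Ctrl. The 8 chondrocyte markers summed to 878 CPM in arterial cells of Graft_D19 and 19.7 in those of Ctrl, and to 6519 and 1845 CPM in pericytes. The 10 arterial markers summed to 3358 and 5387 CPM in arterial cells and the 9 pericyte markers to 18540 and 11540 CPM in pericytes. Their part in the result was not tested.

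Sham_D40 was also set against Ctrl, as a difference between ungrafted libraries. It shares Ctrl, the shallowest library, with the comparison above, so a low level in Ctrl raises both. Sham_D40 over Ctrl, 8 of the 10 members were higher in sinusoidal cells, where 22.0% of genes were. The median log2 ratio of the members was 2.22 for Graft_D19 over Ctrl and 0.913 for Sham_D40 over Ctrl, and that of all genes 0.204 and 0.205. Sham Col4a1 was 1.77 times (1.66 to 1.89) and sham Nid1 1.79 times (1.69 to 1.89) the Ctrl level. The sham and Ctrl libraries differed in injection and depth, and for the day 40 and day 19 grafts no difference can be told apart from the difference between single libraries.

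Both grafted libraries were at least 1.5-fold above both ungrafted ones for 8 of 10 members in sinusoidal cells, all except Nid1 and Hspg2, where 2.77% of all genes were. In arterial cells this held for 5 members (Col4a1, Col4a2, Col15a1, Col18a1 and Nid1, background 3.77%). It held in capillaries for Col18a1 alone (4.15%), in stroma for Nid2 alone (2.46%) and in pericytes for none (3.36%). In stroma without chondrocytes it held for 0 members (1.41%), and the lower grafted Nid2 level was 0.922 times the higher ungrafted level. The sinusoidal levels of Nid1 did not separate grafted from ungrafted marrow: Graft_D40 at 401 CPM and Graft_D19 at 555 CPM lay between Sham_D40 at 628 and Ctrl at 351 CPM, and the log2 ratio of Graft_D40 over Ctrl was 0.193.

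In the test of the 2 grafted against the 2 ungrafted libraries (edgeR quasi-likelihood, added after the data were seen) no member passed an adjusted p of 0.05 in any class. The shares of all genes called higher were 0% in sinusoidal, 0.0731% in arterial, 0.0716% in capillary, 0% in pericyte and 0% in stromal cells. At an unadjusted p under 0.05, 8 members were higher in sinusoidal cells, against 4.57% of genes, 7 in arterial cells (2.96%), 1 in capillaries (2.33%), none in pericytes (1.38%) and 2 in stroma (6.79%), and none was lower. In sinusoidal cells the log2 difference was 3.24 ± 0.55 for Col18a1 (SE, adjusted p = 0.32), 1.74 ± 0.34 for Col4a1 (adjusted p = 0.327) and -0.15 ± 0.32 for Nid1 (adjusted p = 0.915). Nid2 had 2.54 ± 0.43 in sinusoidal cells (adjusted p = 0.32) and 1.14 ± 0.22 in stroma with its chondrocytes included (adjusted p = 0.316). Leaving out a library left a single library in 1 arm, so calls from those fits are not given. The median log2 difference of the members was then 1.6 to 2.39 in sinusoidal, 0.747 to 1.6 in arterial and 0.0193 to 0.821 in capillary cells. In pericytes it was 0.267 to 0.986 and in stroma -0.232 to 0.161. Days 19 and 40 and the sham injection are part of the spread that this test uses.

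The share of sinusoidal cells with a UMI showed the same order for Col4a1. After every cell was thinned to 1000 UMIs, with none left out, it was 67.3% in Graft_D40, 31.5% in Sham_D40, 53.2% in Graft_D19 and 23.6% in Ctrl, and 97.6%, 83.9%, 94.2% and 58.5% before thinning. In haematopoietic cells, which should lack collagen IV, the share before thinning was 18.2% of 33 cells, 4.17% of 24, 11.4% of 44 and 8.33% of 12 in the same libraries. Median depths were 8878, 8813, 9106 and 5046 UMIs in sinusoidal cells and 5903, 9590, 17734 and 13105 in haematopoietic cells. Col18a1 was found in 8.92% of thinned sinusoidal cells in Graft_D40, 0.508% in Sham_D40, 2.85% in Graft_D19 and 0.522% in Ctrl. For Nid1 the thinned shares were 32.3%, 44.3%, 41.0% and 29.3%.

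The sinusoidal class was not made of the same cells in each library. It lay mainly in cluster 5 (led by Ramp3, Ednrb and Piezo2) in Graft_D40 (73.4%), in cluster 20 (led by Sele) in Sham_D40 (81.1%) and Graft_D19 (47.9%, with 39.2% in cluster 5), and in cluster 3 (led by Ackr1) in Ctrl (88.5%). Cells with a UMI of Ramp3 or Piezo2 made up 64.3% of it in Graft_D40, 16.1% in Sham_D40, 39.9% in Graft_D19 and 7.72% in Ctrl. Ramp3 is 1 of the 7 sinusoidal markers, encodes a co-receptor of the adrenomedullin receptor, and Piezo2 encodes a mechanosensitive channel. In cells with either, Col4a1 was 1800 CPM in Graft_D40, 871 in Sham_D40, 1532 in Graft_D19 and 491 in Ctrl. In cells with neither it was 864, 375, 667 and 239 CPM. On each side of this split Col4a1 was higher in both grafted libraries than in Sham_D40 and Ctrl, and in each library it was lower in cells with neither.

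The same was true of Col18a1, with 131 CPM in Graft_D40, 19.7 in Sham_D40, 81.2 in Graft_D19 and 10.1 in Ctrl in cells with Ramp3 or Piezo2, and 34.6, 8.77, 12.5 and 2.62 CPM in cells with neither. Nid1 went the other way, with 374, 587, 510.2 and 307 CPM in cells with either and 466, 637, 596 and 355 CPM in cells with neither. The median log2 ratio of the 10 members, Graft_D40 over Sham_D40, was 0.959 in cells with either and 1.05 in cells with neither, below the 1.75 of the whole class. On each side 7 members were higher by 1.5-fold or more, against 11.4% of genes in cells with either and 8.41% in cells with neither. Whether a cell has such a UMI depends on its depth, and the split was made after the data were seen. It does not separate cluster 5 from the rest. In Graft_D40 that cluster held 73.4% of the class, while 64.3% of the cells had such a UMI. The part of cell makeup in the graft difference was not tested.

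**Figure D4:**
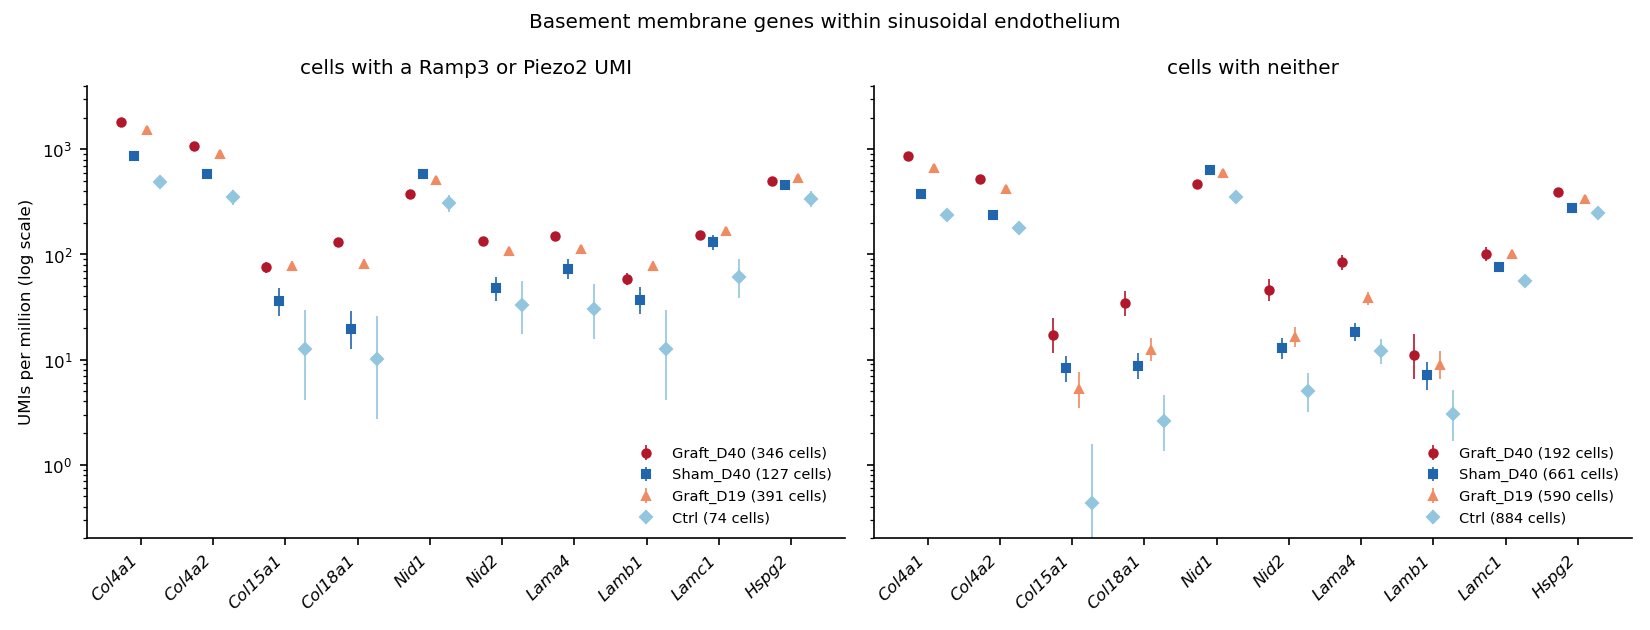
Level of each gene (CPM, log scale) in sinusoidal cells with a UMI of Ramp3 or Piezo2 (left) and with neither (right), by library; bars are exact 95% Poisson intervals. Col4a1, Col4a2, Col18a1, Nid2 and Lama4 are higher in both grafted libraries than in Sham_D40 and Ctrl on each side.

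Markers of other cell types were also present in the sinusoidal class. The 12 stromal markers summed to 3568 CPM in Graft_D40, 1380 in Sham_D40, 1086 in Graft_D19 and 1360 in Ctrl, the 8 fibroblast markers to 1734, 486, 699 and 639.7 CPM, and the 8 chondrocyte markers to 677, 593, 1886 and 157 CPM. All markers of these lists had a UMI in the class. The 7 sinusoidal markers summed to 3211, 5949, 4371 and 4993 CPM. In sinusoidal cells with at most 1 of the 12 stromal markers, of which there were 60 in Graft_D40, 137 in Sham_D40, 278 in Graft_D19 and 624 in Ctrl, Col4a1 was 1411, 482, 1094 and 266 CPM, and 8 members were higher in Graft_D40 than in Sham_D40, against 19.8% of genes, with a median log2 ratio of 1.46.

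Within pairs of genes, collagen IV kept a narrow ratio across the 5 classes while the nidogens did not. Chondrocytes stood apart for the nidogens and, in all libraries but Graft_D40, for collagen IV. Over the 20 class and library combinations the ratio of Col4a1 to Col4a2 UMIs was 1.3 to 2.09, with a median of 1.68. Within stroma it was 2.2 in Graft_D40, 1.92 in Sham_D40, 2.1 in Graft_D19 and 1.92 in Ctrl for LepR cells. In chondrocytes it was 1.27 (1.1 to 1.47) in Graft_D40, 0.536 in Sham_D40 and 0.484 in Graft_D19, and Ctrl had 0 Col4a1 and 11 Col4a2 UMIs. The ratio of Nid1 to Nid2 UMIs was 1.01 to 48.5. In sinusoidal cells it was 3.73 in Graft_D40, 33.3 in Sham_D40, 9.2 in Graft_D19 and 48.5 in Ctrl, and in stroma 1.15, 3.04, 1.13 and 2.94, so that it was lower in both grafted libraries in both classes. In LepR stroma, the Cxcl12-rich perisinusoidal cells, the same ratio was 4.87, 5.37, 5.95 and 3.67, with no such order. In chondrocytes it was 0.043, 0.0439, 0.0261 and 0.0625. The Lamb1 to Lamc1 ratio was 0.0676 to 0.319 in sinusoids and 0.898 to 1.03 in stroma.

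**Figure D5:**
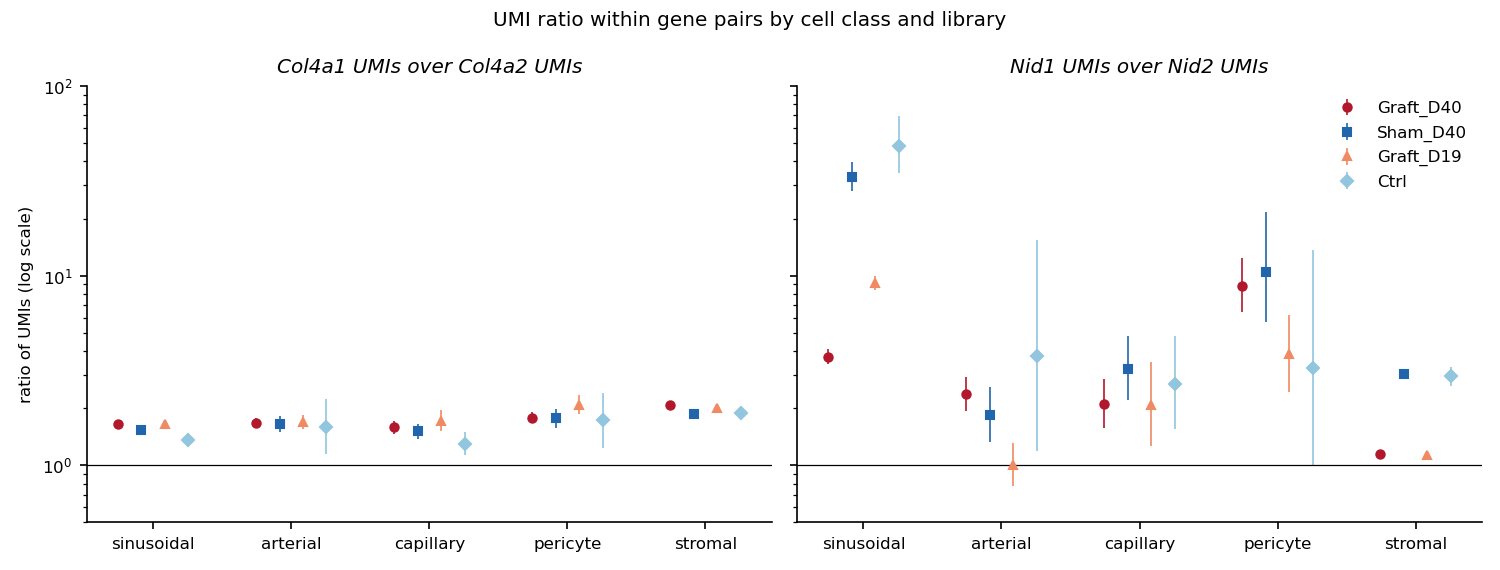
Ratio of UMIs within a gene pair (log scale) by cell class and library, with exact 95% intervals for counting error. Col4a1 over Col4a2 lies between 1.3 and 2.09 in these 5 classes, whereas Nid1 over Nid2 in sinusoidal cells is 3.73 and 9.2 in the grafted libraries and 33.3 and 48.5 in Sham_D40 and Ctrl.

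The stromal class joined cells with unlike basement membrane expression, and its makeup differed: it held 963 chondrocytes in Graft_D40, 387 in Sham_D40, 629 in Graft_D19 and 107 in Ctrl. Chondrocytes had 17.7, 9.3, 6.0 and 0 CPM of Col4a1 in these libraries, where LepR stroma had 909, 654, 759.9 and 346 CPM. The Ctrl value in chondrocytes is 0 of 837253 UMIs, which allows up to 3.58 CPM at 3 counts. For Nid2 the order was turned round, with 167, 109, 198 and 95.6 CPM in chondrocytes and 66.2, 51.4, 47.3 and 39.4 CPM in LepR stroma. Chondrocytes held 58.7% of all Nid2 UMIs of the Graft_D40 library, 37.9% in Sham_D40, 60.2% in Graft_D19 and 15.8% in Ctrl. Without chondrocytes the stromal class had 1 member higher in Graft_D40 than in Sham_D40, Col18a1 (1.82, 1.66 to 1.99), against a background of 6.41%, and the Nid2 ratio was 1.06 (0.975 to 1.15) and the Lamb1 ratio 0.907 (0.872 to 0.945). For Graft_D19 over Ctrl 7 members were higher without chondrocytes, against 22.5% of genes, and 3 with them.

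LepR stroma had 4 members higher in Graft_D40 than in Sham_D40 and none lower, with 9.05% of genes higher and 5.92% lower. Col18a1 had 51.5 and 19.4 CPM (2.65, 2.34 to 3.0), Col15a1 8.8 and 3.7 CPM (2.37, 1.77 to 3.18), Lama4 202 and 107 CPM (1.9, 1.8 to 2.01) and Hspg2 115 and 69.8 CPM (1.64, 1.53 to 1.77). Col4a1 had 909 and 654 CPM, a ratio of 1.39 (1.36 to 1.42) that stayed under the fold. For Graft_D19 over Ctrl 8 members were higher there, against 28.4% of genes. Both grafted libraries were at least 1.5-fold above both ungrafted ones there for 1 member, Col15a1, against 1.38% of genes. Its levels were 1.106 to 8.763 CPM. For Lama4, Hspg2 and Col18a1 the lower grafted level was 1.48, 1.37 and 1.12 times the higher ungrafted one. The 8 LepR stroma markers, which define the subclass, summed to 9445 CPM in Graft_D40, 21560 in Sham_D40, 15640 in Graft_D19 and 20750 in Ctrl, and their part in these differences was not tested. LepR stroma held 64.9% of the Lamb1 UMIs of Graft_D40, 84.3% in Sham_D40, 77.3% in Graft_D19 and 86.2% in Ctrl, and sinusoidal cells 19.4%, 14.3%, 33.3% and 25.4% of the Col4a1 UMIs. These shares move with how many cells of each class were sorted.

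The other genes of the basement membrane pathway were taken from 4 lists. Of all genes, 12.8% were called higher and 11.9% lower in arteries over sinusoids, and 12.9% and 12.6% in capillaries over sinusoids. In capillaries over arteries the shares were 3.0% and 3.82%. They were 11.9% and 16.2% in pericytes over stroma, and 25.1% and 34.4% in endothelium over stroma. The counts of all 4 lists stand against these shares. Of 24 other basement membrane genes 15 were tested between classes. In arteries over sinusoids 6 were higher and 2 lower, among them Lama3 (4.66 ± 0.42, adjusted p = 6.82e-08), the laminin alpha3 chain, Lamb2 (1.76 ± 0.18, adjusted p = 4.03e-07), the laminin beta2 chain, and Hmcn1 (-1.74 ± 0.33, adjusted p = 0.000464), hemicentin. In capillaries over sinusoids 4 were higher and 2 lower, with Npnt, the integrin ligand nephronectin, at -5.34 ± 0.26 (adjusted p = 4.46e-11). In pericytes over stroma 7 were higher and 3 lower, with Tinagl1 at 7.40 ± 0.28 (adjusted p = 7.78e-13), Lama5 at 3.71 ± 0.35 (adjusted p = 1.46e-07) and Smoc2 at -3.08 ± 0.42 (adjusted p = 1.38e-05). In endothelium over stroma the count was 7 higher and 6 lower, and in capillaries over arteries 0 higher and 2 lower, Npnt and Lama3.

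Of 17 receptors, all tested, 7 were higher and 1 lower in arteries over sinusoids, against 12.8% and 11.9% of all genes. In capillaries over sinusoids 4 were higher and 2 lower, against 12.9% and 12.6%. Bcam, a receptor of laminin alpha5, was above sinusoids by 3.57 ± 0.34 in arteries (adjusted p = 1.6e-07) and by 3.94 ± 0.35 in capillaries (adjusted p = 5.62e-08). Itga6, the alpha6 chain of laminin-binding integrins, was above sinusoids by 2.36 ± 0.30 in capillaries (adjusted p = 6.63e-06), and Itga2, of the collagen-binding integrin, below them by -3.55 ± 0.55 (adjusted p = 6.38e-05). In pericytes over stroma 5 were higher and 4 lower (all genes 11.9% and 16.2%), with Itga7 at 6.98 ± 0.35 (adjusted p = 2.44e-11). In capillaries over arteries 1 was higher and 4 lower (all genes 3.0% and 3.82%), and in endothelium over stroma 6 were higher and 7 lower (25.1% and 34.4%).

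Of 14 collagen IV folding and crosslinking genes 3 were higher and 2 lower in arteries over sinusoids (all genes 12.8% and 11.9%). The counts were 3 and 3 in capillaries over sinusoids (12.9% and 12.6%) and 2 and 1 in capillaries over arteries (3.0% and 3.82%). They were 1 and 11 in pericytes over stroma (11.9% and 16.2%), and 2 and 12 in endothelium over stroma (25.1% and 34.4%). Pxdn, the peroxidase that forms the sulfilimine bond of collagen IV, was among the 2 in endothelium (4.50 ± 0.22, adjusted p = 1.46e-12) and was the 1 in pericytes (2.78 ± 0.27, adjusted p = 2.2e-07). Lysyl oxidase Lox (-4.36 ± 0.22, adjusted p = 3.34e-12), which also acts on fibrillar collagen, was lower in endothelium than in stroma. Of 14 remodelling genes 13 were tested, against the same shares of all genes. In arteries over sinusoids 3 were higher and 5 lower, with 1 and 5 in capillaries over sinusoids and 0 and 3 in capillaries over arteries. The counts were 2 and 9 in pericytes over stroma and 2 and 9 in endothelium over stroma. Adamts5, a proteoglycan-cleaving protease, was below sinusoids by -7.15 ± 0.31 in arteries (adjusted p = 1.07e-11), and the cathepsin gene Ctsl by -3.17 ± 0.27 (adjusted p = 3.18e-08).

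In sinusoidal cells of Graft_D40 over Sham_D40 the same 4 lists had medians nearer to 0 than the 10 members. Of all genes 8.46% were higher and 7.77% lower in this comparison. Of 7 other basement membrane genes measured 1 was higher, Agrn, the proteoglycan agrin, with 92.9 CPM in Graft_D40 and 44.2 in Sham_D40 (2.1, 1.82 to 2.43), and Sparc had 5999 and 4221 CPM (1.42, 1.4 to 1.44). Of 14 receptors measured 6 were higher and 3 lower, with Bcam at 59.0 and 20.0 CPM (2.95, 2.41 to 3.62), Itga2 at 94.4 and 36.5 CPM (2.59, 2.22 to 3.01) and Itgb1, the beta1 chain shared by most matrix integrins, at 897 and 493 CPM (1.82, 1.74 to 1.9). Of 14 folding genes 1 was higher and 1 lower, and the collagen chaperone gene Serpinh1 had 491 and 347 CPM (1.42, 1.34 to 1.5). Of 11 remodelling genes 4 were higher and 4 lower, with Timp2, a metalloproteinase inhibitor, at 229 and 84.6 CPM (2.71, 2.45 to 2.99), Ctsl at 1201 and 2801 CPM (0.429, 0.417 to 0.441) and Adamts5 at 1381 and 2666 CPM (0.518, 0.504 to 0.532). The median log2 ratios of these lists were 0.194, 0.314, 0.152 and 0.394. For Graft_D19 over Ctrl 5 of 7, 10 of 13, 7 of 12 and 6 of 11 were higher and 0, 0, 0 and 1 lower, where 21.7% of all genes were higher. Ctsl was the lower one, with 1773 CPM in Graft_D19 and 5292 in Ctrl (0.335, 0.329 to 0.341).

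Across the 20 class and library combinations, the 45 pairs of members had correlations of log2 levels of -0.43 to 0.99, with a median of 0.48. These are descriptions over columns that share 4 libraries and their depth. Nid1 did not follow the mean of the members (r = -0.018) and had its lowest correlation with Lamb1 (-0.43). The 5 other genes whose pattern was most like the mean of the members, among 7169 genes, were Endod1 (r = 0.92), Akap13 (0.87), Lrrfip1 (0.86), Adgre5 (0.86) and Gnas (0.85). By Spearman's rho 2 of these 5, Endod1 and Lrrfip1, were again among the top 5.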

How the data were processed

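The deposited values are raw counts of UMIs per gene and barcode. Per the submitters' processing notes they were made with Cell Ranger 3.1.0 on mm10, while the file headers of the count tables name 5.0.0. Antibody features in Sham_D40 and Graft_D40 were left out. A cell was kept if it had at least 500 genes, at least 1000 UMIs and no more than 10% of its UMIs from mitochondrial genes; 0.941% to 1.85% of them were removed as Scrublet doublets (scanpy 1.11.5). Cells were classed by the number of fixed markers with a UMI: at least 5 of 12 endothelial with 4 of 7 sinusoidal, 4 of 10 arterial or 4 of 8 capillary markers, at least 5 of 9 pericyte markers, or 4 of 12 stromal markers. UMIs were summed by class and library. Class contrasts used edgeR 4.0.16 (R 4.3.3), quasi-likelihood, with the library as a block, and Benjamini-Hochberg adjustment over 11786 genes. In data simulated for arterial over sinusoidal cells over these genes, 42% of 2-fold and 95% of 4-fold changes were recovered and 0.0259% of unchanged genes were called. The 2 grafted libraries were tested against the 2 ungrafted ones with the same tool within each class. In data simulated for sinusoidal cells over 12279 genes, 18% of 2-fold and 94% of 4-fold changes were recovered. That simulation gave all genes the same fixed spread, with no difference of day, injection or cell makeup within an arm. Its shares therefore do not give the power of the test in these data, where 0% of sinusoidal genes were called. Groups of 1 library each were compared as ratios with exact conditional binomial intervals and no p-value, the log2 ratio using a pseudocount of 1 CPM. A UMI is a molecule tagged near its 3′ end, so a level is not per gene length and is not ranked between genes.

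The 10 members, the 4 pathway lists and the comparisons were chosen with earlier results of these data known. Named beside the members were up to 4 genes per list with the largest log2 difference at 20 CPM or more in a class, and the 5 most like the members' mean. Alternatives were DESeq2 1.42.0, no filter, no library block, other scalings, stricter gates and cell filters, Leiden clusters, doublets kept, equal weight per cell, leaving out the 10 cells with most UMIs, the other ungrafted library and leaving out each library. Human lymphoma cells were not analysed here.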

Additional observations from a re-analysis of the deposited data

Results flagged for a closer look

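In 3 genes the day 40 graft library differed from the sham library in opposite directions in different cell classes. With 1 library per group none of these differences between classes was tested. Nid1 was lower in sinusoidal cells, at 0.639 times the sham level (0.607 to 0.672), and higher in arterial cells, at 1.64 times (1.31 to 2.06). Lama4 was lower in capillaries, at 0.645 times (0.525 to 0.793), and higher in sinusoidal cells, at 4.7 times (4.01 to 5.53). Lamb1 was lower in capillaries, at 0.488 times (0.365 to 0.651), and in stroma, at 0.637 times (0.612 to 0.663), and higher in sinusoidal cells, at 3.64 times (2.83 to 4.7). Without chondrocytes the stromal Lamb1 ratio was 0.907, so it was no longer past the fold. In LepR stroma the lower grafted Lamb1 level was 1.1 times the higher ungrafted level.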

How the results depend on the processing

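For Graft_D40 over Sham_D40 the sinusoidal count of higher members was 7 to 9 and its median log2 ratio 1.56 to 2.86 over the alternatives listed in the methods, and for Graft_D19 over Ctrl the count was 8 to 10 and the median 1.31 to 2.59. Where computed, the share of all genes higher was 8.01% (stricter gate) to 26.6% (against Ctrl) for Graft_D40. For Graft_D19 it was 5.42% (against Sham_D40) to 23.3% (stricter cell filters). In the other classes counts for Graft_D40 moved. Against Ctrl in place of Sham_D40 they were 10 in arterial, 3 in capillary, 6 in pericyte and 4 in stromal cells, where 28.6%, 24.5%, 33.5% and 20.0% of all genes were higher, so that the capillary count lay near the background. With equal weight per cell they were 2, 0, 1 and 2 (all genes 13.1%, 16.5%, 14.6% and 6.58%). With Leiden clusters they were 10 in arterial, 1 in pericyte and 2 in stromal cells (14.6%, 13.3% and 5.17%). A stricter gate gave 0 in capillary, 1 in pericyte and 2 in stromal cells (21.1%, 13.6% and 6.12%). Stricter cell filters gave 0 in capillary and 1 in pericyte cells (18.6% and 17.6%). Median-of-ratios scaling gave 2 in stroma, where the share of all genes was not computed. Without the 10 cells with most UMIs they were 2 in capillary, 4 in pericyte and 2 in stromal cells, also without a share of all genes. For Graft_D19 over Ctrl they were 4 in capillaries without those cells and 3 in pericytes against Sham_D40 (17.8% of genes). In stroma they were 5 with equal weight (20.6%) and 7 without chondrocytes (22.5%). All of these are counts of higher members. For Graft_D40 over Sham_D40 in capillaries, 6 members were lower with a stricter gate, against 18.5% of genes, where the main count was 2. The count of lower members was 1 with equal weight per cell (15.6%) and 2 with Leiden clusters (11.8%) and with stricter cell filters (16.8%). The causes were not tested.

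Nid1 in sinusoids reversed with the comparator: its log2 ratio was 0.193 for Graft_D40 over Ctrl and -0.179 for Graft_D19 over Sham_D40, and these comparisons share their controls with the main ones. In pericytes Lama4 (-0.0509) and Lamc1 (-0.0586) reversed against Sham_D40, Nid2 with Leiden clusters (-0.527) and Col15a1 with stricter cell filters (0.969). Stromal Col15a1 was -0.313 for Graft_D19 over Sham_D40, and capillary Nid2 -1.4 for Graft_D19 over Ctrl without the 10 cells with most UMIs.

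Between classes, 9 members were called in arterial over sinusoidal cells, 5 without the library block and 4 to 9 when a library was left out. All genes called were 24.7%, 19.1% and 15.4% to 23.9%. In this contrast 5 members were higher and 1 lower with a stricter gate (all genes 12.1% and 12%). With stricter cell filters 6 were higher and 1 lower (11.2% and 12.8%). The ranges on leaving out a library were 7 to 9 for capillary over sinusoidal, 1 to 3 for capillary over arterial, 4 to 5 for pericyte over stromal and 6 to 8 for endothelial over stromal cells. The shares of all genes called, in the same order, were 16.8% to 25.5%, 3.86% to 5.49%, 20.2% to 26.4% and 50.8% to 57.8%. Capillary over arterial calls were 2 with DESeq2, 3 without a filter and 2 with a stricter gate (all genes 7.57%, 4.27% and 8.86%). Uncalled differences that reversed were Hspg2 in arterial over sinusoidal cells (-0.0727 without a filter, -0.0408 to 0.0644 when a library was left out, -0.106 with a stricter gate, -0.00242 with stricter cell filters), Nid2 in capillary over arterial cells (-0.414 to 0.104), Col15a1 in pericyte over stromal cells (-0.255 with a stricter gate) and Lamc1 in endothelial over stromal cells (-0.0189 to 0.437), both on leaving out a library. In the test of both grafted against both ungrafted libraries, added after the data were seen, 0 members were called in each class. On leaving out a library, which leaves a single library in 1 arm, the members' median log2 difference was 1.6 to 2.39 in sinusoidal and 0.747 to 1.6 in arterial cells. It was 0.0193 to 0.821 in capillary, 0.267 to 0.986 in pericyte and -0.232 to 0.161 in stromal cells. By Spearman's rho 2 of the 5 likest genes stayed. No paired analysis was possible because each group has 1 library. Depth limits the low genes: Col15a1 in Ctrl sinusoids rested on 7 UMIs and Col18a1 in Ctrl capillaries on 2.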
